A study of Mus musculus with 7 samples.

Results

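The proteasome is the barrel-shaped protease that destroys proteins tagged with ubiquitin. Its transcripts were read in a fast-twitch muscle of the hindlimb, the extensor digitorum longus, from 3 AMPKα1α2 double knockout mice and 4 wild type mice, all on a mixed C57/Bl6 and SV129 background. AMPK is the kinase that senses low cellular energy, and α1 and α2 are its alternative catalytic subunits. Each array held biotin-labelled RNA of 1 sample, and the series counts mice, so an array was taken as 1 mouse. The labels used here do not say which cells or exons the deletions covered, nor the sex, age or exercise state of the mice. Members were all genes whose array symbol is Psma, Psmb, Psmc, Psmd, Psme, Psmf or Psmg and a number, without the interferon-inducible Psmb8 and Psmb9. The rule gave 48 genes of 19938 measured. Of these, 46 encode a subunit, an activator, an inhibitor or an assembly factor, and 2, Psmc3ip and Psme3ip1, carry the prefix because their products bind a proteasome protein.

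The working enzyme is assembled from separate parts. A 20S core of stacked α and β rings holds the proteolytic sites inside a closed chamber. A 19S regulatory particle, made of a ring of ATPases and a set of non-ATPase subunits, binds ubiquitin chains, removes them and threads the unfolded substrate into the core. In muscle this system carries much of the breakdown of myofibrillar proteins during wasting, and the transcription factor NRF1, encoded by Nfe2l1, is known to raise many subunit genes together when proteasome activity falls.

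The arrays were alike, and the labelled tissue was borne out by its markers. The 8 genes of the fast fibre list (Myh1, Myh2, Myh4, Actn3, Tnnt3, Tnni2, Ckm and Pvalb) had mean log2 values between 12.17 and 14.12, while the median over all probe sets lay between 7.520 and 7.584 in knockout arrays and between 7.501 and 7.545 in wild type arrays. Within a genotype the arrays correlated closely over all genes (genes are no replicates), with Pearson's r between 0.9912 and 0.9935 among knockout arrays and between 0.9945 and 0.9974 among wild type arrays. Of the targeted genes, Prkaa1 differed by -0.51 ± 0.09 and Prkaa2 by -0.21 ± 0.07 (knockout minus wild type, log2, ± SE, limma adjusted p = 0.12 and 0.39), so neither passed the threshold of 0.05. Markers of other cell types differed too. All 12 myeloid markers were above every wild type array in every knockout array, with a median difference of 0.60, and 2 of them passed the threshold. All 9 endothelial markers had a negative difference (median -0.32) and all 4 slow fibre markers a positive one (median 0.66), with 0 past the threshold. Fibroblast markers went both ways, with 5 positive and 2 negative differences, a median of 0.41 and 3 of 7 above every wild type array. Pericyte and smooth muscle markers had 1 positive and 4 negative differences, a median of -0.19 and 2 of 5 below. Again 0 were past the threshold. Over all genes, the 2 groups did not overlap for 8.61%. The part of these cell types in the proteasome values was not tested. In bulk muscle, fewer cells of a type and less RNA per cell cannot be told apart.

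Transcripts of the proteasome differed little between the genotypes. None of the 48 members passed an adjusted p of 0.05 in limma, where 5 of all genes (0.0251%) did. At an unadjusted p under 0.05 there were 3 members, Psmb2 and Psmd6 with lower values and Psmg2 with higher values in the knockout, beside 10.6% of all genes. The knockout and wild type arrays did not overlap for 4 members, Psmb2, Psma3, Psmb3 and Psmg2, beside 8.61% of all genes, so both counts were near or under the background. The median difference over the members was -0.02, beside -0.005 over all genes. With only probe sets at or above the median level, it was -0.0243 over the 44 members kept, beside -0.0173 over all genes kept. Among these brighter genes the medians lay closer together, and the part of signal level in the member differences was not tested. The difference was negative in 34 of the 48 members, beside 10648 of the 19938 genes of any level. It ran from -0.29 for Psmd6 to 0.11 for Psmg2.

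The intervals bound how far most members can have moved. For 42 of the 48 members, or 87.5%, the 95% limma interval of the difference lay wholly within a 1.2-fold change in either direction, that is within 0.26 on the log2 scale. The same held for 73.6% of all genes. That fold was chosen after the values were seen. The 6 members whose interval reached further were Psma3, Psma7, Psmb1, Psmb2, Psmd6 and Psme4, and the intervals of Psmb2 and Psmd6 also left out 0. Members were also somewhat less variable than most genes, with a median SD of 0.066 in knockout and 0.048 in wild type arrays, beside 0.078 and 0.061 over all genes.

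**Figure D1:**
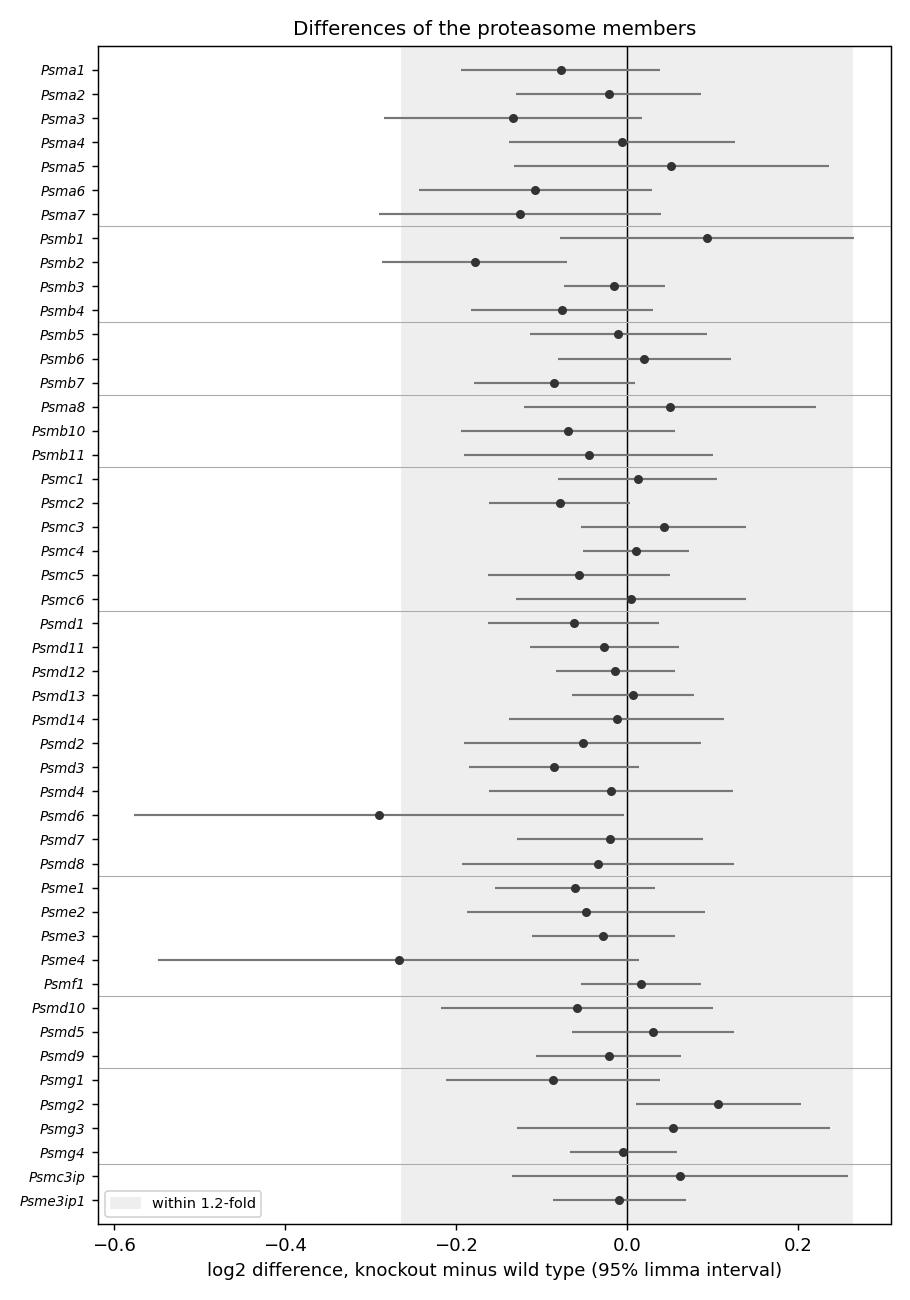
Log2 difference (knockout minus wild type, horizontal axis) of each of the 48 members, listed by role from the 20S α ring at the top to the genes that are no subunits at the bottom. Points are differences, bars are 95% limma intervals (3 knockout and 4 wild type arrays) and the grey band marks a change within 1.2-fold. Of the 48 bars, 42 lie wholly inside the band, and those of Psmd6 and Psme4 reach furthest out of it.

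**Figure D2:**
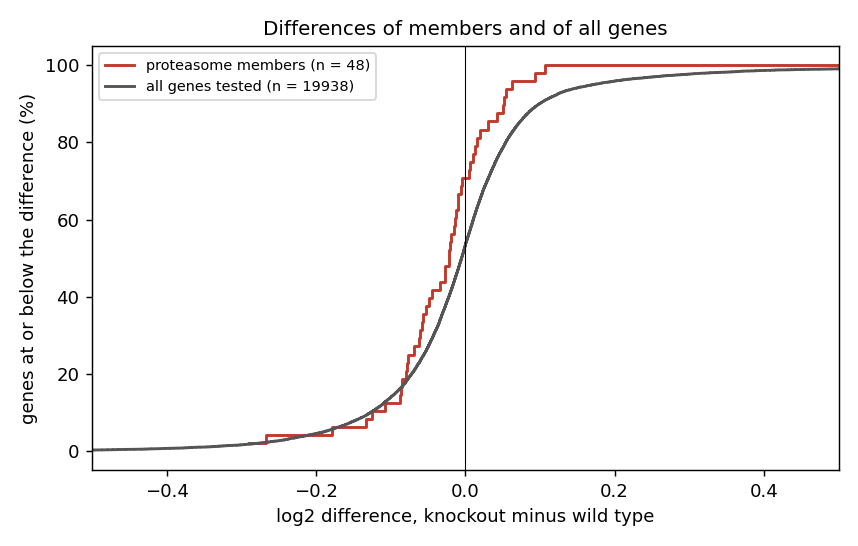
Cumulative share of genes (vertical axis, percent) at or below each log2 difference (knockout minus wild type, horizontal axis) for the 48 members and for all 19938 genes. The member curve crosses its middle at -0.02 and the curve of all genes at -0.005, and no member exceeds 0.11. Differences beyond 0.5 in either direction, found only among other genes, are outside the axis.

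Promoter sequence was examined for the elements through which subunit genes are known to be driven together. The antioxidant response element core TGACNNNGC, bound by NRF1 and NRF2, was searched on both strands in the 250 bases before each gene start (RefSeq, GRCm38.p6). Its first letters, TGAC, are also part of the AP-1 and cyclic AMP response elements. It was present for 5 of the 40 members with a promoter in the table, or 12.5%, beside 11.5% of all 27025 genes with a promoter there, measured or not. CCAAT, bound by the trimeric factor NF-Y, was present for 15 of the 40, or 37.5%, also 37.5% of all genes with a promoter. The share of members with either motif was thus close to that of all promoters of this length. Psma8, Psmb1, Psmb2, Psmb7, Psmc3, Psmd3, Psmd7 and Psmg2 were not found by symbol among the promoters, so they were not searched.

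The matches to TGACNNNGC, about as frequent as over all genes with a promoter, fall in members from different parts of the complex. The stretches that hold them are shown with the match in capitals and the strand that of the gene. They lie at chr14:54618009-54618067 (minus strand, Psmb5), chr11:70525323-70525356 (plus, Psmb6), chr14:45329574-45329630 (plus, Psmc6), chr11:107479278-107479314 (plus, Psmd12) and chr5:123228134-123228189 (plus, Psmd9). In Psmc6 and Psmd12 the match is on the opposite strand and reads as its reverse complement.
Psmb5: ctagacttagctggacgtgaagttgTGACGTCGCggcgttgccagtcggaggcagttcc
Psmb6: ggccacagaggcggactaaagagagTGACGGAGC
Psmc6: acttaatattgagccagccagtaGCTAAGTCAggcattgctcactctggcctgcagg
Psmd12: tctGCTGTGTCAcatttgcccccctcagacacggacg
Psmd9: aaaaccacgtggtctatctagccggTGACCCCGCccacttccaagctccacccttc
The match starts 47 bases before the gene start in Psmb5, 9 in Psmb6 and 31 in Psmd9, while those of Psmc6 and Psmd12 lie 227 and 247 bases away. These 5 genes differed between the genotypes by -0.02 to 0.02 on the log2 scale, and none of them was among the members with an unadjusted p under 0.05. Of the members with such a p, Psmb2 and Psmg2 were not searched and so could not match.

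The α ring, which gates entry to the core, had 7 members, Psma1 to Psma7, of which 6 had a negative difference. Their median difference was -0.08, the most negative of the role groups, with 0 members at an unadjusted p under 0.05. Psma3 read 11.28, 11.26 and 11.05 in knockout replicates 1 to 3, against 11.29, 11.36, 11.38 and 11.28 in wild type replicates 1 to 4. Its groups did not overlap, but knockout replicate 1 lay just below the lowest wild type array (11.279 against 11.283), and the distance came mainly from knockout replicate 3. The difference was -0.13 ± 0.06 (SE, limma adjusted p = 0.53), and -0.06 without knockout replicate 3.

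Psma7 and Psma6 showed the same array at the bottom. Psma7 read 9.45, 9.48 and 9.28 in knockout arrays, against 9.63, 9.49, 9.58 and 9.42 in wild type arrays, with wild type replicate 4 inside the knockout range. Psma6 read 11.04, 11.01 and 10.88 in knockout arrays, against 11.11, 11.08, 11.17 and 10.98 in wild type arrays, again with replicate 4 inside that range. Their differences were -0.12 ± 0.07 and -0.11 ± 0.06, and both were -0.06 without knockout replicate 3. Psma5 was the member of the ring with a positive difference, 0.05 ± 0.08, and it was -0.01 without wild type replicate 4.

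Among the noncatalytic β subunits, Psmb2 gave the smallest p of all members. It read 11.27, 11.26 and 11.30 in knockout arrays, against 11.52, 11.39, 11.52 and 11.40 in wild type arrays. The knockout arrays were close together and all lay below the wild type arrays, which formed a higher pair, replicates 1 and 3, and a lower pair, replicates 2 and 4. The difference was -0.18 ± 0.05, or 1.13-fold lower (adjusted p = 0.26 in limma over all probe sets with 1 symbol). Leaving out any single array gave -0.20 to -0.16.

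The other 3 of this kind were Psmb1, Psmb3 and Psmb4. Psmb3 also had groups that did not overlap, at 12.73, 12.75 and 12.74 in knockout arrays and 12.76, 12.75, 12.75 and 12.75 in wild type arrays, yet its difference was only -0.01 ± 0.03. Psmb4 differed by -0.08 ± 0.04, and by -0.05 without knockout replicate 1. Psmb1 differed by 0.09 ± 0.07, with knockout arrays between 10.10 and 10.18 inside the wild type range of 9.91 to 10.19, and by 0.05 without wild type replicate 4.

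The catalytic β subunits carry the active sites: Psmb6 the caspase-like, Psmb7 the trypsin-like and Psmb5 the chymotrypsin-like site, the target of bortezomib. None differed by as much as 0.1. Psmb5 read 11.83, 11.85 and 11.99 in knockout arrays, against 11.89, 11.93, 11.89 and 11.89 in wild type arrays. Psmb6 read 10.77, 10.74 and 10.90 in knockout arrays, against 10.78 in all 4 wild type arrays. For both, knockout replicates 1 and 2 lay below every wild type array and replicate 3 above every one. The differences were -0.01 ± 0.04 for Psmb5 and 0.02 ± 0.04 for Psmb6, with limma intervals of -0.11 to 0.09 and -0.08 to 0.12. Both changed sign when 1 knockout array was left out, Psmb5 to 0.02 without replicate 1 and Psmb6 to -0.03 without replicate 3. Psmb7 differed by -0.09 ± 0.04 (adjusted p = 0.52), at 10.98, 10.90 and 10.89 in knockout arrays against 11.08, 10.99, 10.98 and 10.98 in wild type arrays, with knockout replicate 1 level with wild type replicates 3 and 4.

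Psmb10 is the inducible counterpart of Psmb7, built into the immunoproteasome of immune cells and of tissue exposed to interferon-γ. It read 8.77, 8.70 and 8.79 in knockout arrays, against 8.94, 8.77, 8.83 and 8.76 in wild type arrays. The groups overlapped, and the difference was -0.07 ± 0.05 (adjusted p = 0.71), or -0.03 without wild type replicate 1. Its partner subunits Psmb8 and Psmb9 differed by -0.02 ± 0.04 and -0.09 ± 0.07. The mean log2 value of the 12 myeloid markers was 8.85 to 8.97 in knockout arrays and 8.17 to 8.38 in wild type arrays, and the part of these cells in the values of the inducible subunits was not tested. The 7 measured lymphocyte markers had mean values of 5.84 to 7.55, around or below the array medians, and a median difference of 0.02.

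Core subunits made for other tissues were dim. Psma8, known from the testis, had mean values of 6.30 ± 0.10 in knockout and 6.25 ± 0.11 in wild type arrays (SD, n = 3 and n = 4). Psmb11, known from the thymic cortex, had 6.62 ± 0.10 and 6.66 ± 0.08. Both lay below the median probe set of every array, where signal is compressed towards background, and differed by 0.05 ± 0.07 and -0.04 ± 0.06.

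The 19S ATPases, Psmc1 to Psmc6, form the ring that unfolds substrates and opens the gate of the core. Their median difference was 0.01, with 4 positive and 2 negative and 0 members at an unadjusted p under 0.05, and all 6 intervals lay within 1.2-fold. Psmc2 read 9.94, 9.86 and 9.85 in knockout arrays, against 9.99, 9.94, 9.93 and 9.98 in wild type arrays. Only knockout replicate 1 reached the wild type range. The difference was -0.08 ± 0.03 (limma adjusted p = 0.48). Psmc5 differed by -0.06 ± 0.04 and by -0.03 without wild type replicate 1, and Psmc3 differed by 0.04 ± 0.04 (0.02 without knockout replicate 3 and 0.07 without replicate 1). Psmc4 was the steadiest of the ring, at 10.49 ± 0.02 in knockout and 10.48 ± 0.004 in wild type arrays (SD, n = 3 and n = 4).

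The 11 non-ATPase subunits include the ubiquitin receptor Psmd4, the scaffold subunits Psmd1 and Psmd2 and the deubiquitinase Psmd14. The difference was negative in 10 of them, with a median of -0.03. Psmd6, a subunit of the lid, stood apart with the largest difference of all members. It read 10.28, 10.59 and 10.10 in knockout arrays, against 10.79, 10.62, 10.52 and 10.51 in wild type arrays. Knockout replicates 1 and 3 lay below every wild type array, while replicate 2 lay among them. The difference was -0.29 ± 0.12, or 1.22-fold lower (adjusted p = 0.47 in limma). Its size hung on single arrays, at -0.18 without knockout replicate 3 and -0.42 once replicate 2 was dropped.

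The other lid and base subunits lay close to 0. Psmd3, a lid subunit, read 10.03, 9.93 and 9.93 in knockout arrays, against 10.11, 10.04, 10.05 and 9.998 in wild type arrays, and differed by -0.09 ± 0.04. Psmd1 differed by -0.06 ± 0.04, and by -0.03 without knockout replicate 2. Psmd14, the enzyme that cuts ubiquitin chains off the substrate, differed by -0.01 ± 0.05 and Psmd4 by -0.02 ± 0.06. Leaving Psmd6 aside, the other 10 non-ATPase subunits had intervals within 1.2-fold.

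**Figure D3:**
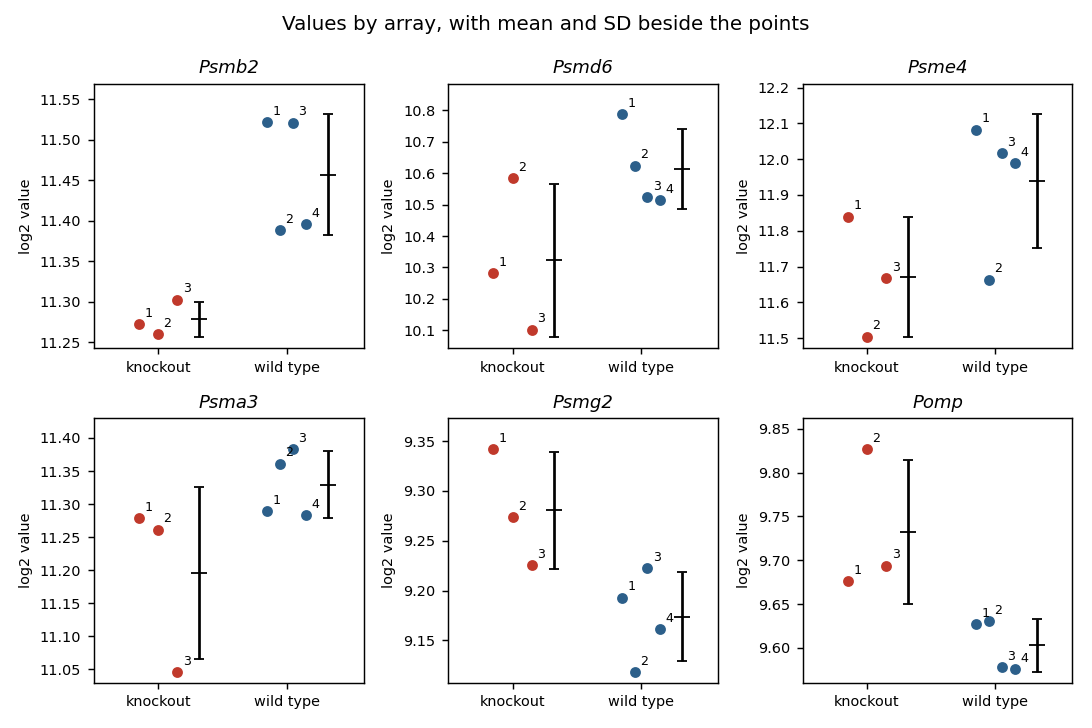
Log2 values of 6 genes (vertical axes, each on its own scale) in 3 knockout (red, left) and 4 wild type (blue, right) arrays, numbered by replicate, with the mean and SD as a bar beside the points. Psmb2, Psma3, Psmg2 and Pomp show no overlap between the groups, while in Psmd6 and Psme4 the groups overlap.

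Activators other than the 19S particle cap the core without using ubiquitin. Psme4, or PA200, a nuclear activator linked to histone breakdown, read 11.84, 11.50 and 11.67 in knockout arrays, against 12.08, 11.66, 12.02 and 11.99 in wild type arrays. Wild type replicate 2 lay among the knockout arrays, and the other wild type arrays above all of them. The difference was -0.27 ± 0.12 (adjusted p = 0.49 in limma), or -0.36 without wild type replicate 2 and -0.18 without knockout replicate 2. Its interval, -0.55 to 0.01, was among the widest of the members.

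Psme1 and Psme2 encode the PA28α and PA28β subunits of the interferon-inducible cap. Psme1 read 9.59, 9.70 and 9.71 in knockout arrays, against 9.78, 9.71, 9.72 and 9.72 in wild type arrays. It differed by -0.06 ± 0.04 and by -0.02 without knockout replicate 1. Psme2 read 10.04, 9.80 and 9.99 in knockout arrays, against 10.002, 9.98, 10.02 and 9.96 in wild type arrays. It differed by -0.05 ± 0.06 and by 0.02 without knockout replicate 2, the one array below the rest. Psme3, the nuclear PA28γ, differed by -0.03 ± 0.04 and by -0.01 without knockout replicate 3. Psmf1, or PI31, first described as an inhibitor of the core, differed by 0.02 ± 0.03, and by 0.0002 without wild type replicate 2.

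Assembly factors of the core gave the only positive difference with an unadjusted p under 0.05. Psmg2, which with Psmg1 forms the dimer that guides the α ring, read 9.34, 9.27 and 9.23 in knockout arrays, against 9.19, 9.12, 9.22 and 9.16 in wild type arrays. All knockout arrays lay above all wild type arrays, though knockout replicate 3 was only just above wild type replicate 3. The difference was 0.11 ± 0.04, or 1.08-fold higher (adjusted p = 0.44 in limma), and between 0.08 and 0.13 with any single array dropped. Its partner Psmg1 had the opposite sign, -0.09 ± 0.05, or -0.04 without knockout replicate 3.

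The second chaperone dimer, Psmg3 and Psmg4, differed by 0.05 ± 0.08 and -0.004 ± 0.03. Psmg3 stood at 7.59 in knockout replicate 3, against 7.30 to 7.47 in the other arrays of both genotypes, and its difference was -0.03 without that array. The chaperones of the 19S base, Psmd5, Psmd9 and Psmd10 (gankyrin), differed by 0.03 ± 0.04, -0.02 ± 0.04 and -0.06 ± 0.07. Their signs turned to -0.01 for Psmd5 without knockout replicate 1, and to 0.01 for Psmd9 and 0.02 for Psmd10 without knockout replicate 3. Of the 2 genes that are no subunits, Psmc3ip, a meiotic recombination factor, differed by 0.06 ± 0.08 and Psme3ip1 by -0.01 ± 0.03. Psmc3ip was 0.01 without wild type replicate 3 and 0.13 without replicate 4.

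**Figure D4:**
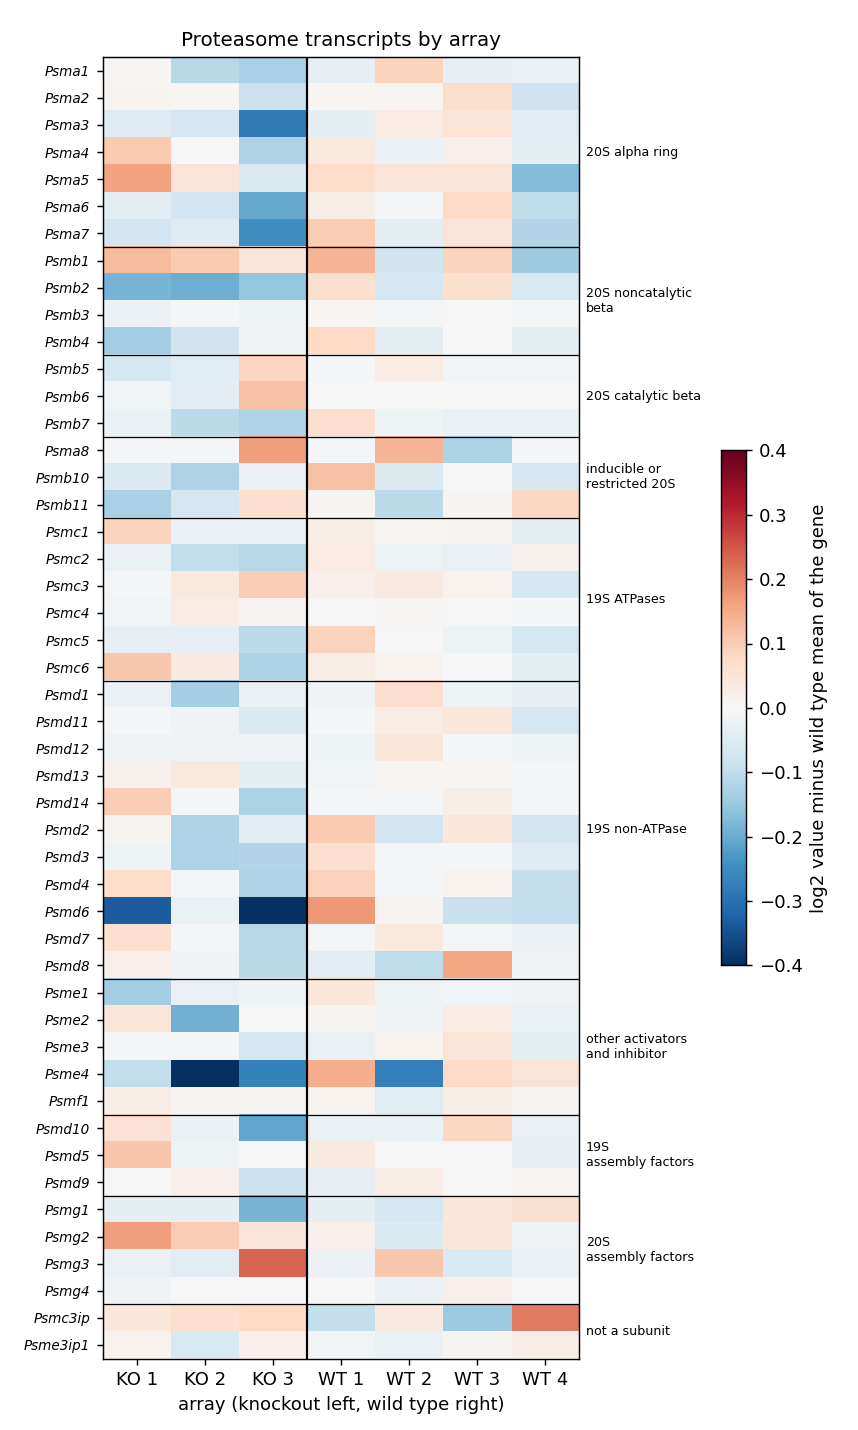
Log2 value minus the wild type mean of the same gene (colour, from -0.4 in blue to 0.4 in red) for the 48 members (rows, by role) in 3 knockout and 4 wild type arrays (columns). Most cells are pale, the deepest blue cells are Psmd6 in knockout replicates 1 and 3 and Psme4 in knockout replicate 2, and values below the wild type mean number 28, 35 and 35 of 48 in knockout replicates 1 to 3, against 18, 28, 18 and 39 in wild type replicates 1 to 4.

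The arrays of the 2 genotypes overlapped in their level of the members. Measured from each gene's wild type mean, the median over the members was -0.009, -0.024 and -0.051 in knockout replicates 1 to 3, against 0.010, -0.004, 0.010 and -0.026 in wild type replicates 1 to 4. Wild type replicate 4 was thus lower than knockout replicates 1 and 2. It lay below the wild type mean for all 14 constitutive core subunits and for 16 of the 17 subunits of the 19S particle. Knockout replicate 3 was lowest, at -0.10 for both the core and the 19S particle, and alone held the lowest value for 20 of the 48 members (41.7%, beside 17.6% of all genes). At the other end, wild type replicate 1 alone held the highest value for 15 members (31.2%, beside 11.2% of all genes).

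The spread of signal also differed between arrays, and its part in the member levels was not tested. Upper quartiles of the log2 values were 8.80 in knockout replicate 3, against 8.84 and 8.85 in knockout replicates 1 and 2 and 8.82 to 8.86 in wild type arrays, where replicate 4 had 8.82, the lowest. Wild type replicate 2 had an upper quartile of 8.8256 against 8.8232 in replicate 4, and a member median of -0.0045 against -0.0265. After quantile normalization, which gives all arrays the same spread, the member median was 0.004 in knockout replicate 3 and -0.015 in wild type replicate 4. Knockout replicates 1 and 2 stood at -0.012 and -0.028 and wild type replicates 1 to 3 at 0.010, 0.008 and -0.017, so the groups still overlapped. For the core subunits they did not: the values after this step were -0.044, -0.060 and -0.034 in knockout replicates 1 to 3, against 0.026, 0.004, 0.009 and -0.026 in wild type replicates 1 to 4, with knockout replicate 3 the least low of its group. Medians over all genes did not overlap either, so the lack of overlap alone was not particular to the core. In the knockout arrays they were smaller in size than those of the core, and the groups nearly met. The medians over all genes were -0.0068, -0.0134 and -0.0018 in knockout arrays, against -0.0005, 0.0003, 0 and -0.0016 in wild type arrays. For the 19S particle they were -0.010, -0.023 and -0.035 in knockout arrays, against 0.021, 0.020, -0.024 and -0.027 in wild type arrays. Knockout replicate 3 then alone held the lowest value for 13 members (27.1%, beside 20.8% of all genes), as many as knockout replicate 2 (beside 19.9%). Without knockout replicate 1 the median difference over the members was -0.04, and without knockout replicate 3 it was -0.01.

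**Figure D5:**
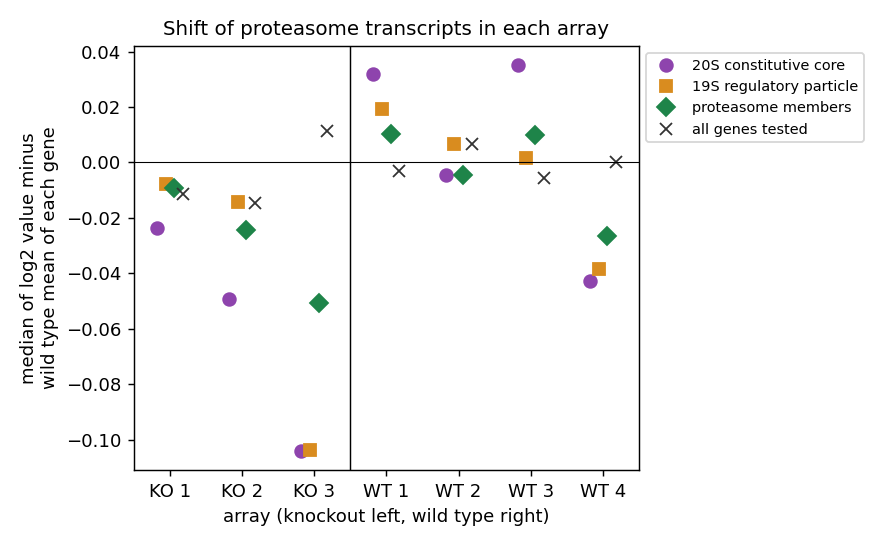
Median, over the genes of a set, of the log2 value minus the wild type mean of each gene (vertical axis) in the 3 knockout and 4 wild type arrays, for 14 constitutive 20S subunits, 17 subunits of the 19S particle, all 48 members and all genes. Knockout replicate 3 reaches -0.10 for both particles while all genes stand at 0.011, and wild type replicate 4 is lower than the other wild type arrays for all 3 sets of proteasome genes.

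Several members were measured more than once, with similar differences each time. Psma3, Psma5, Psmb3, Psmc1 and Psmd2 had several probe sets each, and the one of highest mean was used. For Psma3, Psma5, Psmb3 and Psmd2 the genes next to that probe set in ID order lie on another chromosome than the gene itself, so it may read a near-identical copy. Whether it does was not tested. The 3 probe sets of Psma3 gave -0.13, -0.14 and -0.13, those of Psma5 0.05 and 0.09, those of Psmb3 -0.01 and -0.02, those of Psmc1 0.01 and -0.001, and those of Psmd2 -0.05 and -0.07. With the probe set that sits among genes of the right chromosome, the groups of Psma3 and Psmb3 overlapped, leaving 2 members without overlap.

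Proteasome partners outside the naming rule were read as a separate list. Of the 13 measured, 12 had a negative difference, with a median of -0.08, and 0 passed an adjusted p of 0.05. At an unadjusted p under 0.05 there were 3 with lower values and 1 with higher values, or 4 of 13 beside 10.6% of all genes. The median size of the difference was 0.087, beside 0.049 in the members and 0.048 over all genes, and 69.2% of the partners had an interval within 1.2-fold. The higher one was Pomp, the maturation protein that lets the parts of the core join. It read 9.68, 9.83 and 9.69 in knockout arrays, against 9.63, 9.63, 9.58 and 9.58 in wild type arrays, with no overlap, and differed by 0.13 ± 0.04 (adjusted p = 0.39 in limma). Txnl1, a thioredoxin bound to the 19S particle, read 9.44, 9.37 and 9.18 in knockout arrays, against 9.50, 9.48, 9.53 and 9.44 in wild type arrays, and differed by -0.16 ± 0.06 (adjusted p = 0.45). Its lowest array was again knockout replicate 3.

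Genes that control proteasome transcription had a median difference of -0.01, with 4 positive and 4 negative in a range of -0.14 to 0.35. Of these genes, 37.5% differed by more than 0.2 in size, beside 8.6% of all genes. Nfe2l1 read 11.57, 11.55 and 11.56 in knockout arrays, against 11.57, 11.59, 11.72 and 11.50 in wild type arrays, a difference of -0.03 ± 0.05. Nfe2l2, or NRF2, read 9.71, 10.41 and 9.76 in knockout arrays, against 9.75, 9.67, 9.83 and 9.60 in wild type arrays, so knockout replicate 2 alone stood apart. Maff, a small Maf partner of both factors, was likewise at 7.58 in that array, against 7.03 and 7.24 in the other knockout arrays and 6.99 to 7.11 in wild type arrays. Mafk was at 9.31 there, against 8.41 and 8.55 in the other knockout arrays and 8.34 to 8.49 in wild type arrays. Its difference was the largest of the list, 0.35 ± 0.20 (adjusted p = 0.62 in limma). Keap1, the adaptor that keeps NRF2 low, read 8.96, 8.73 and 8.86 in knockout arrays, against 9.05, 8.98, 8.96 and 8.97 in wild type arrays. Its groups did not overlap, and it differed by -0.14 ± 0.06 (adjusted p = 0.45 in limma). Of the 8 measured genes of this list, 0 passed the adjusted threshold and 1, Keap1, had an unadjusted p under 0.05, beside 10.6% of all genes.

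Ahead of the proteasome stand ubiquitin ligases and the segregase Vcp, which pulls substrates out of complexes. Of 11 ligases studied in muscle, 0 passed the adjusted threshold and the median difference was -0.03, in a range of -0.12 to 0.37. The upper end was Trim63, or MuRF1, a ligase of myofibrillar proteins, at 10.34, 11.47 and 10.16 in knockout arrays against 10.36, 10.02, 10.55 and 10.19 in wild type arrays. Knockout replicate 2 alone stood apart, and the difference was 0.37 ± 0.31 (adjusted p = 0.74 in limma). Fbxo32, or atrogin-1, read 11.48, 11.41 and 10.87 in knockout arrays, against 11.72, 9.83, 11.43 and 10.90 in wild type arrays, where replicate 2 was far below the rest, and differed by 0.28 ± 0.44 (adjusted p = 0.87). Stub1, or CHIP, a ligase that works with chaperones, had no overlap, at 9.58, 9.61 and 9.64 in knockout arrays against 9.67, 9.71, 9.72 and 9.66 in wild type arrays, and differed by -0.08 ± 0.03 (adjusted p = 0.44 in limma). Traf6 differed by -0.12 ± 0.05 (adjusted p = 0.48). The Vcp list had a median difference of 0.001 over 8 genes, with Faf1 at -0.13 ± 0.06, Ufd1 at -0.05 ± 0.03 and 0 genes at an unadjusted p under 0.05. Among 7 genes of interferon-inducible antigen processing, again with 0 at an unadjusted p under 0.05, Tap2 differed by -0.10 ± 0.05 and Erap1 by -0.11 ± 0.07. The ubiquitin list was read through Uba6 alone, an E1 enzyme that differed by -0.11 ± 0.14.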

How the data were processed

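The authors deposited 1 processed value per probe set and array for 28856 probe sets on 7 arrays, made from 100 ng of TRIzol-extracted total RNA, per the labels' protocols. The steps of background correction and normalization were not given in the sources used here, and the log2 base of the deposited values was inferred from their range. Many repeat exactly between arrays (47.9% of members and 59.4% of all genes share a value between arrays), so a very small SD can reflect such repeats. The number of unused columns was 0.

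Probe sets were named through GEO's platform annotation: 21789 had 1 symbol, 1621 several and 5446 none, and 21698 matched RefSeq by gene identifier. A gene was read through its probe set of highest mean. Knockout minus wild type was fitted with limma 3.58.1 (lmFit, eBayes) in R 4.3.3 over all probe sets with 1 symbol, without covariates, with Benjamini-Hochberg adjustment and a threshold of 0.05. Values after ± are moderated standard errors unless marked SD. Every p is two-sided. The fit was also run on simulated data with independent noise, without array effects or repeated values. How it behaves with those features of the real arrays was not tested. Nothing says that samples were independent beyond the count of mice, and the number of arrays limits precision.

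The members, lists and tests were chosen with earlier results of these data known. The named genes were fixed by a rule: catalytic, inducible and tissue-restricted subunits, activators and assembly factors, the 3 members of smallest p per role, the 5 largest differences each way, members without overlap, and 2 genes of smallest p per other list. It gave 33 members and 13 other genes. Further genes (Psmc1, Psmc4, Psmd4, Psmd14, Psmd2, Psme3ip1, Psmc6, Psmd12, Nfe2l1, Nfe2l2, Mafk, Trim63, Fbxo32, Psmb8, Psmb9) were named after their values were seen. Alternatives were leaving out each array, other thresholds, quantile normalization, a replicate block, array weights, centring on the median, a trended and robust prior, the brighter probe sets only, the mean of a gene's probe sets, adjustment over all probe sets, dropping the 2 genes that are no subunits, and, added after seeing the data, probe sets among genes of the right chromosome.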

Additional observations from a re-analysis of the deposited data

Results flagged for a closer look

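In 9 of 46 named genes, 1 of the 4 wild type arrays lay far from the other 3 (the gap to the nearest array over the whole range, called the ratio here, passed Dixon's critical value), where chance alone flags about 1 gene in 20. Repeated values in the deposited table can make the other 3 arrays sit close together, as in Psma5, Psmb7, Traf6 and Erap1. In Psmb5, Psmd10, Psme1 and Psmf1 the other 3 wild type arrays held no value repeated among themselves. In Psme1 and Psmf1, however, 1 of them shared its value with a knockout array. Among the members, Psma5 stood at 8.99 in wild type replicate 4, against 9.21 to 9.24 in the others (ratio 0.908). Psmb5 was at 11.93 in replicate 2, against 11.89 (0.932). Psmb7 was at 11.08 in replicate 1, against 10.98 to 10.99 (0.912), and Psme1 at 9.78 in replicate 1, against 9.71 to 9.72 (0.882). Psmd10 was at 9.04 in replicate 3, against 8.93 (0.952), and Psmf1 at 8.75 in replicate 2, against 8.81 to 8.82 (0.832). Of the other genes, Prkaa2 was at 12.03 in replicate 2, against 12.28 to 12.31 (0.911), Traf6 at 9.28 in replicate 2, against 9.16 to 9.17 (0.878), and Erap1 at 8.30 in replicate 3, against 8.09 to 8.10 (0.962).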

How the results depend on the processing

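No member passed an adjusted p of 0.05 under any alternative that keeps that threshold, nor at 0.10, and 3 had an unadjusted p under 0.05. The lowest adjusted p of a named member over these alternatives was 0.182. Genes called over the whole table numbered 5, and 0 with the replicate block, 72 at an adjusted p under 0.10, 2118 at an unadjusted p under 0.05 and between 0 (without wild type replicate 1, 3 or 4) and 14 (without knockout replicate 1) when 1 array was left out. The median member difference of -0.02 was -0.03 with the replicate block, -0.0134 with array weights and, when 1 array was left out, ran from -0.0425 (without knockout replicate 1) to -0.0136 (without knockout replicate 3). It stayed negative under every alternative run for it, but was not always lower than the median over all genes. That median was 0.0005 without knockout replicate 1, -0.0126 with array weights and -0.0181 without knockout replicate 3. In the last case the members were less negative than all genes. The member medians of the 4 wild type arrays had an SD of 0.0173. Members without overlap numbered 4, and 2 after median centring (which shifted the median of all genes to -0.02), 2 with the probe sets chosen by chromosome and 4 to 11 (most without wild type replicate 4) with single arrays dropped, where fewer arrays make separation easier. Of the 33 named members, 11 changed sign in at least 1 of 16 alternatives, each with a difference short of the threshold in both fits. Same-numbered samples share only a number: their deviations correlated at 0.29, 0.16 and -0.20 for replicates 1 to 3, and knockout replicate 3 correlated best with wild type replicate 4. Dim members such as Psma8 and Psmb11 are limited by background signal.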
